A study of Mus musculus with 7 samples.

Results

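The set described here is the machinery that copies DNA, 50 genes chosen by name for the role of their products, out of 23212 genes named in the merged transcript set of the study. All 50 were assembled in at least 1 library, and 45 of them in all 7. Lack of an assembled transcript in a library need not mean that the RNA was absent there. RNA of primary wild-type C57BL/6 mouse B cells was sequenced after anti-IgM for 8 h and 30 h, BAFF for 8 h and 30 h, both agents together for 8 h and 30 h, and no treatment at 0 h. Anti-IgM cross-links the B cell antigen receptor, and BAFF is a TNF-family survival cytokine of B cells. Each condition is 1 library, so no difference below has a replicate check and no test was possible. There is no cultured unstimulated library among the 7, so time in culture and the stimulus cannot be told apart in any comparison with 0 h. The labels used here do not state how the B cells were purified or how many mice gave them.

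Before a cell copies its genome, the origin recognition complex (ORC), CDC6 and CDT1 load the ring-shaped MCM2-7 helicase onto DNA, and geminin later blocks CDT1 so that loading is not repeated. At the start of S phase the CDC7-DBF4 kinase, CDC45 and the GINS complex turn the loaded rings into active helicases, primase and the polymerases alpha, delta and epsilon copy the strands, and the PCNA clamp holds the polymerases on. Resting B cells do not divide and hold little of this machinery, and many of its genes are known targets of the E2F factors, which are active when cells pass from G1 into S phase.

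Levels are FPKM, fragments per kilobase of transcript, scaled to the number of mapped fragments, summed over the assembled transcripts of a gene. FPKM is per length, so levels of different genes are set side by side below. The RNA was reverse transcribed from poly-dT primers, and uneven coverage along transcripts of different length was not checked. A gene was compared between 2 libraries when it was assembled in both and reached 1 FPKM in 1 of them. It was counted as higher or lower when log2(FPKM + 1) differed by at least 1 and the counting intervals of the libraries did not overlap. For a gene with a lone transcript these intervals span about 2 SD of counting error on each side. For a gene in several pieces they can be wider, as for Fen1 with BAFF at 30 h (0 to 63.0 FPKM). Because the summed value can be inflated when a gene is assembled in several pieces or joined to a neighbour, each gene was also measured over exon bases that no other gene shares (12 of the 50 share some). A difference is called held when that measure also moved by at least 1 in the same direction. The libraries are bulk RNA, so more cells in S phase and more RNA per cell cannot be told apart.

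The 7 libraries held 17.6 to 26.8 M mapped reads, as calculated back from the transcript values, and 10164 to 10603 assembled genes. Of 8 B cell markers 7 were above 0 in every library, with a summed level of 876 to 2326 FPKM in the 6 stimulated libraries and 1895 FPKM unstimulated. The eighth, Cd79a, carries no value under its own name, and in the unstimulated library its locus lies inside a longer joined transcript. Of 12 macrophage and monocyte markers, 11 of them named in the merged set, 5 to 9 were above 0 in the stimulated libraries, with sums of 12.4 to 100.5 FPKM, against 10 and 242 FPKM unstimulated. Of 9 T cell markers, 8 named in the merged set, 2 or 3 were above 0 in each stimulated library and 4 unstimulated. Their sums were 17.6 to 99.7 FPKM in the stimulated libraries, against 25.3 FPKM unstimulated. Most of this was Lck, which reached 93.8 FPKM with anti-IgM at 30 h, against 16.5 FPKM unstimulated. Cd3e, Cd3d and Cd8b1 were at 0 in all 7 libraries, while Cd3g, Cd4 and Cd8a were above 0 in some. The 7 neutrophil markers named in the merged set, of a list of 8, were listed at 0 throughout, as Cd79a was. The erythroid list summed to 245 FPKM unstimulated, of which the globin transcript Beta-s gave 218 FPKM. Its sums in the stimulated libraries were 41.0 to 78.4 FPKM. There Tfrc was the highest gene of the list, except at 8 h of BAFF, where Beta-s was highest at 45.1 FPKM. Tfrc alone was above 0 with anti-IgM at 8 h and with both at 8 h and 30 h. The part of other cells in the results below was not tested.

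Promoter sequences are shown first because many members carry the same short motif. RefSeq promoters of GRCm38.p6, reaching from 250 bases before to 50 bases after an annotated start, matched 41 of the 50 genes and gave 50 promoters. The E2F motif, searched on both strands as TTTCCCGC, TTTCGCGC, TTTGCCGC or TTTGGCGC, was found in 16 of the 50 member promoters (32%), against 744 of all 32851 promoters of that length (2.26%). The genes were Cdc6, Cdt1, Clspn, Gins3, Lig1, Mcm3, Mcm5, Mcm6, Mcm7, Orc1, Orc3, Pola1, Pold1, Pold3, Pole2 and Rfc3. The windows below are given 5′ to 3′ on the strand of the gene, with the motif or its reverse complement in capitals. The first 6 belong to genes that were higher with anti-IgM at 30 h, and the last 2 to genes that were not counted as different there.
Cdc6, chr11:98907993-98908040, plus strand: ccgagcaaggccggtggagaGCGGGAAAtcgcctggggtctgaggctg
Mcm5, chr8:75109336-75109383, plus strand: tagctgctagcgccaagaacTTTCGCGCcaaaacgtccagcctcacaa
Mcm6, chr1:128359788-128359835, minus strand: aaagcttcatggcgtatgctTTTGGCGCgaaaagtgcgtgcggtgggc
Mcm7, chr5:138172021-138172068, minus strand: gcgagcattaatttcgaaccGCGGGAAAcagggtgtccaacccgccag
Orc1, chr4:108579407-108579454, plus strand: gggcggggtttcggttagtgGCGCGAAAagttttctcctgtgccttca
Pola1, chrX:93632266-93632313, minus strand: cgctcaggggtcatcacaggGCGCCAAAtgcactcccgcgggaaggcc
Gins3, chr8:95633498-95633545, plus strand: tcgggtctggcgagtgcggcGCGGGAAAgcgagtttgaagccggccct
Orc3, chr4:34614956-34615003, minus strand: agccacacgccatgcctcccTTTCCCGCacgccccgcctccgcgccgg
In Mcm5 and Mcm6 the capitals overlap a second E2F word on the other strand, and Mcm6 holds a further one nearer its start. A match is a description of these letters and says nothing of binding.

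The motif was present in members of both kinds. It was in 12 of 34 promoters of genes counted higher at 30 h with anti-IgM or with both (35.3%), and in 4 of 16 promoters of the other matched members (25%). The CCAAT box, CCAAT on either strand, was in 52% of member promoters and 37.4% of all promoters. The CHR element, TTTGAA on either strand, which many mitotic genes carry, was in 18% of member promoters and 17.9% of all.

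At 8 h few members passed the 2-fold threshold in either direction. With anti-IgM 2 of 47 members compared were counted higher and 4 lower, against 10.8% higher and 10.6% lower of all genes compared. With BAFF 3 of 45 were higher and 2 lower, against 5.6% and 4.31% of all genes, and with both 2 of 45 were higher and 3 lower, against 12.3% and 8.87%. The median member difference was -0.02 with anti-IgM, 0.02 with BAFF and 0.05 with both, where the medians over all genes were 0.05, 0.12 and 0.11. These shares were near or below those of all genes. At a 1.5-fold threshold 10 members were higher and 6 lower with anti-IgM, with 5 and 3 for BAFF and 6 and 5 for both. The share of all genes at that threshold was not counted, so these numbers have no baseline.

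At 30 h most members were counted higher than in the unstimulated library with anti-IgM and with both agents, and fewer with BAFF. With anti-IgM 33 of 48 members compared were counted higher and 1 lower, against 8.44% and 7.35% of all genes. With both agents 34 of 48 were higher and 0 lower, against 8.36% and 7.87%, and with BAFF alone 16 of 47 were higher and 1 lower, against 5.22% and 4.1%. The median member difference was 1.5 with anti-IgM, 0.70 with BAFF and 1.53 with both, and the medians over all genes were 0.06, 0.07 and 0.02. The 3 comparisons share the unstimulated library. Over unshared exon bases 34 members were higher with anti-IgM, 24 with BAFF and 34 with both. The medians by that measure were 1.85, 1.01 and 1.79 for the members and 0.09, 0.09 and 0.05 for all genes. The share of all genes counted by that measure was not computed. Of the counted differences 32, 16 and 32 members were held as higher, and the 1 lower gene, Cdt1, was held with neither anti-IgM nor BAFF. The 15 members counted higher at 30 h with none of the 3 stimuli were Cdt1, Cdc7, Dbf4, Gins2, Gins3, Orc2 to Orc6, Pold1, Pole, Rfc1, Rfc2 and Rpa1, of which Gins2 and Orc6 could not be compared.

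**Figure D1:**
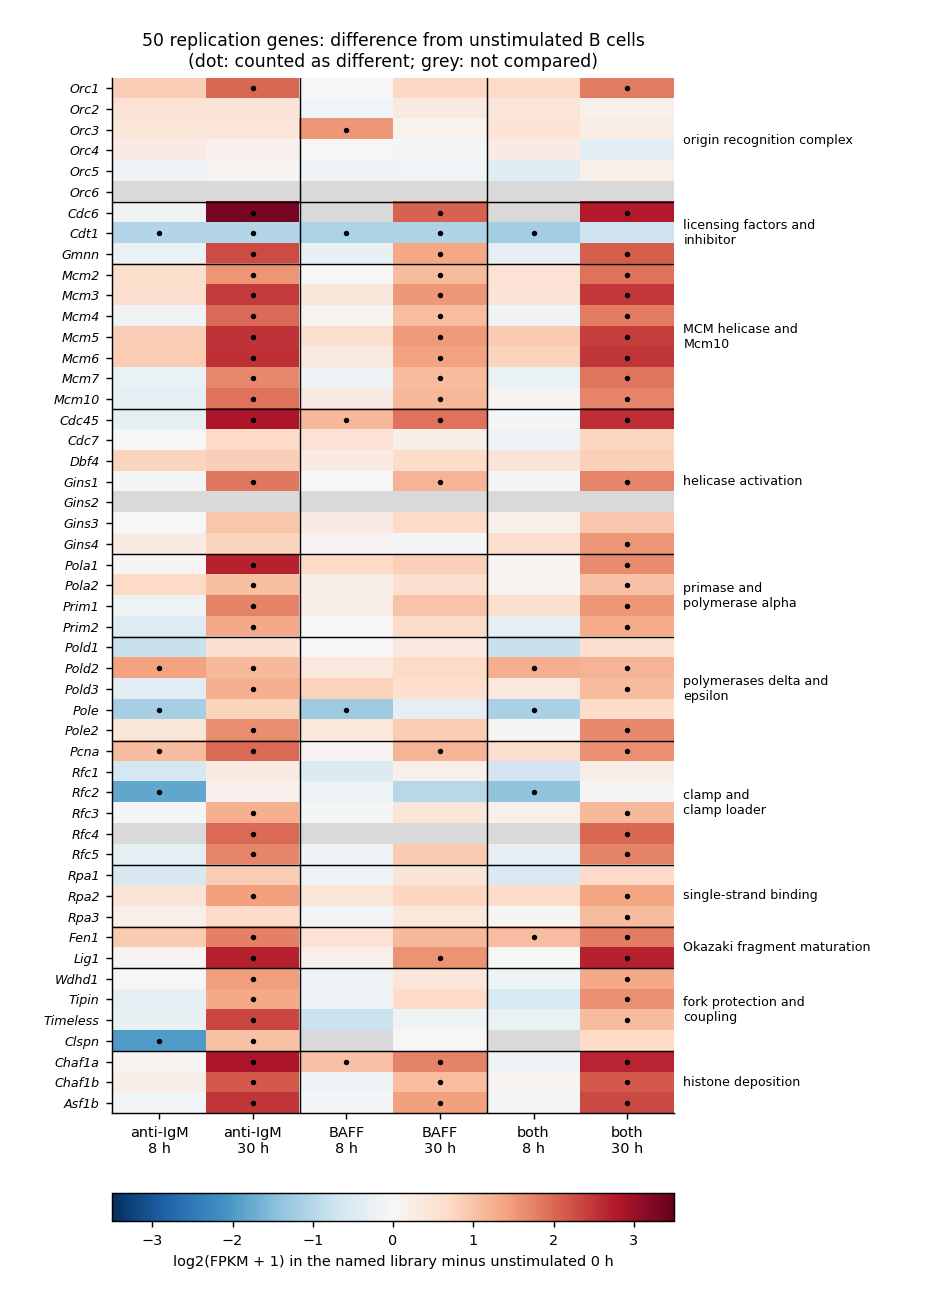
Each cell is the log2(FPKM + 1) of 1 gene in the named library minus that of the unstimulated library, with genes in rows by role and stimuli and times in columns. Dots mark counted differences and grey marks genes not compared; the 30 h columns of anti-IgM and of both hold 33 and 34 genes counted higher, the BAFF 30 h column 16, and the 8 h columns 2 or 3 each.

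**Figure D2:**
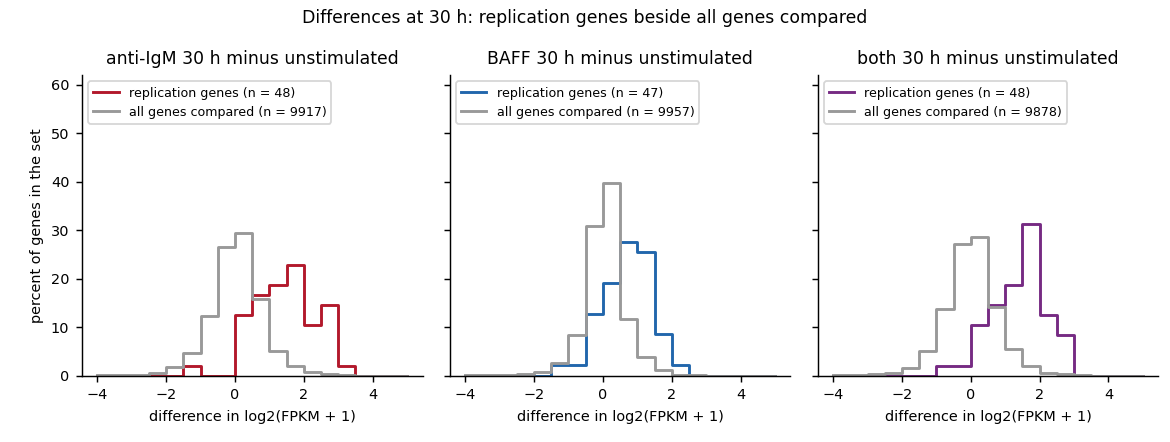
The percentage of genes in bins of the difference in log2(FPKM + 1) from the unstimulated library at 30 h is drawn for the replication genes (coloured) and for all genes compared (grey). The replication genes lie to the right of all genes with each stimulus, with medians of 1.5, 0.70 and 1.53.

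The origin recognition complex did not move as a block. Orc1, which encodes the subunit that comes and goes with the cell cycle in mammalian cells, had the lowest level of the assembled subunits in all 7 libraries. Orc1 was at 3.58 and 9.09 FPKM at 8 h and 30 h of anti-IgM, 1.48 and 3.19 FPKM with BAFF, and 3.01 and 7.83 FPKM with both, against 1.52 FPKM unstimulated. Its 30 h differences of 2.0 with anti-IgM and 1.81 with both were counted and held, while the 0.73 with BAFF was not counted. The core subunits Orc2, Orc3, Orc4 and Orc5 were at 13.5 to 19.7 FPKM with anti-IgM at 30 h, against 11.4 to 14.1 FPKM unstimulated, and none was counted higher at 30 h. Orc5, for example, was at 11.2 and 13.5 FPKM with anti-IgM, 11.1 and 11.6 FPKM with BAFF, and 9.10 and 14.3 FPKM with both, against 12.6 FPKM unstimulated. Orc2 and Orc4 had their highest level at 8 h of anti-IgM, 20.6 and 15.1 FPKM. Orc6, the smallest subunit, was not assembled unstimulated and so was not compared with that library; it was at 11.2 and 25.8 FPKM at 8 h and 30 h of anti-IgM, 10.2 and 19.0 FPKM with BAFF, and 10.8 and 28.5 FPKM with both. Between 8 h and 30 h it was counted higher with anti-IgM and with both. One counted value in this group did not hold: Orc3 with BAFF at 8 h was 34.1 FPKM, against 11.4 FPKM unstimulated, but over its unshared exons 7.88 FPKM, against 6.52 FPKM. Orc2, Orc3 and Orc4 each share exon bases with another gene.

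The licensing factors differed in direction in the summed values. Cdc6, whose product loads MCM2-7 with ORC, showed the largest member difference at 30 h of anti-IgM. It was at 1.04 and 21.2 FPKM (interval 19.7 to 22.7) at 8 h and 30 h of anti-IgM, 8.27 FPKM with BAFF at 30 h and 14.1 FPKM with both at 30 h, against 1.21 FPKM (interval 0.892 to 1.53) unstimulated, and was not assembled at 8 h of BAFF or of both. The differences at 30 h were 3.33, 2.07 and 2.77, all held, although the anti-IgM transcripts came in 3 pieces and the unshared value was 10.2 FPKM, against 0.602 FPKM unstimulated. Gmnn, which encodes geminin, was at 9.44 and 59.5 FPKM with anti-IgM, 9.29 and 30.8 FPKM with BAFF, and 8.87 and 53.0 FPKM with both, against 11.4 FPKM unstimulated. All 3 libraries at 30 h were above all 4 others for this inhibitor, and the 3 differences from unstimulated, 2.29, 1.36 and 2.13, were held. Cdt1, the loading factor that geminin inhibits, had its highest level unstimulated: 15.5 and 15.6 FPKM with anti-IgM, 14.6 and 15.1 FPKM with BAFF, and 13.6 and 19.6 FPKM with both, against 32.9 FPKM (interval 30.7 to 35.1) unstimulated. The 6 stimulated libraries lay close together and below the unstimulated one. In the unstimulated library Cdt1 was assembled as 4 overlapping pieces, and its value over unshared exons was 23.2 FPKM, so that 0 of the lower counts held.

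The 6 subunits of the MCM2-7 ring were higher at 30 h with every stimulus, and all of those differences were held. Mcm6 was the highest subunit at 30 h in all 3 stimulated libraries. It was at 40.4 and 129 FPKM (interval 126 to 132) at 8 h and 30 h of anti-IgM, 26.7 and 57.7 FPKM with BAFF, and 37.2 and 124 FPKM with both, against 21.3 FPKM (interval 20.1 to 22.5) unstimulated. Mcm5 was at 109, 52.5 and 101 FPKM with anti-IgM, BAFF and both at 30 h, against 18.0 FPKM unstimulated. Mcm3 was at 107, 54.7 and 108 FPKM in the same order of stimuli, against 18.6 FPKM. Mcm4 and Mcm7 stood lower, at 77.6 and 72.2 FPKM with anti-IgM, 40.8 and 48.1 FPKM with BAFF, and 69.3 and 83 FPKM with both, against 18.8 and 21.9 FPKM unstimulated. Mcm2 had the smallest difference of the 6 with anti-IgM: it was at 45.2 FPKM with anti-IgM, 33.3 FPKM with BAFF and 57.9 FPKM with both, against 14.9 FPKM.

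The products of these 6 genes form a ring with 1 copy of each, but their FPKM levels were not equal. Unstimulated, the highest subunit was 1.47 times the lowest (Mcm7 at 21.9 and Mcm2 at 14.9 FPKM), and the intervals of Mcm5, Mcm3 and Mcm4 overlapped from each to the next, as did those of Mcm6 and Mcm7. With anti-IgM at 30 h the ratio was 2.86 (Mcm6 and Mcm2), with both 2.14 and with BAFF 1.73. Over unshared exons the ratios were 2.90, 2.91 and 2.34, against 1.87 unstimulated. Mcm2, the lowest of the 6 at 30 h, has 4636 exon bases, against 2901 for Mcm6, and the part of gene length was not tested. In the anti-IgM 30 h library Mcm3 and Mcm5 were the only neighbours in the order whose intervals overlapped. At 8 h of anti-IgM the ring genes already differed: Mcm5 and Mcm6 were 0.87 and 0.89 above unstimulated on the log2 scale, below the threshold, while Mcm4 and Mcm7 were at -0.13 and -0.24. Mcm10, which acts when the helicase is switched on, was far scarcer than the ring genes at 11.8 FPKM with anti-IgM, 6.72 FPKM with BAFF and 10.3 FPKM with both at 30 h, against 2.44 FPKM unstimulated, and its 3 differences at 30 h were held.

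**Figure D3:**
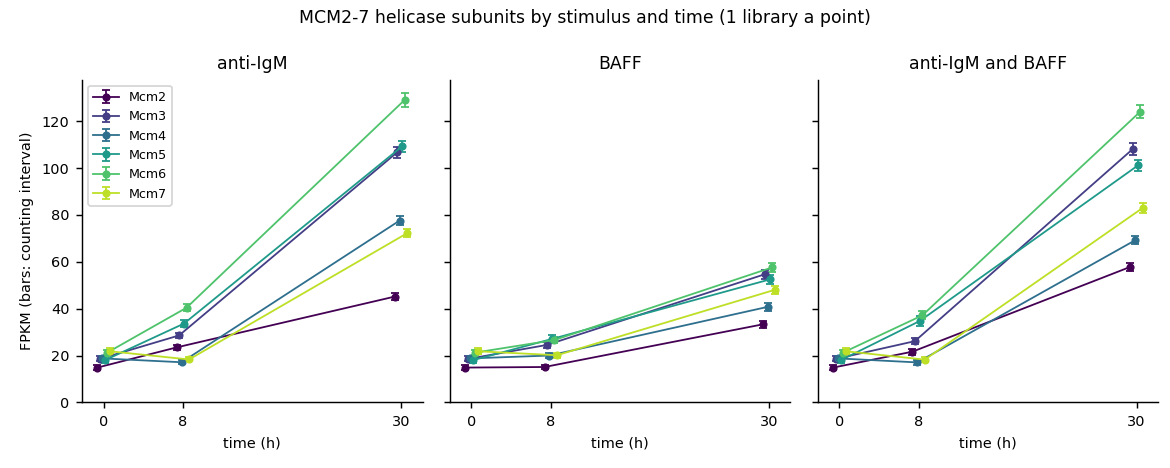
FPKM of the 6 MCM2-7 genes is plotted against time for anti-IgM, BAFF and both, with the unstimulated library at 0 h; bars are counting intervals and each point is 1 library. At 30 h the genes spread from 45.2 to 129 FPKM with anti-IgM and from 33.3 to 57.7 FPKM with BAFF, against 14.9 to 21.9 FPKM at 0 h.

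Among the genes that turn the ring into a moving helicase, Cdc45 and Gins1 stood apart from the kinase genes. Cdc45 was at 28.7 FPKM with anti-IgM, 14.6 FPKM with BAFF and 24.2 FPKM with both at 30 h, against 3.17 FPKM unstimulated, which is a ratio of 9.05 with anti-IgM. Its level at 8 h of BAFF, 8.19 FPKM, was counted higher but was 3.10 FPKM over unshared exons, against 2.68 FPKM unstimulated, and was not held. Gins1, a GINS subunit, was at 18.1, 11.1 and 16.6 FPKM with anti-IgM, BAFF and both at 30 h, against 4.34 FPKM, and all 3 differences were held. Gins3 missed the threshold with differences of 0.98 with anti-IgM and 0.93 with both. Gins4 was counted higher only with both, at 35.4 FPKM against 11.6 FPKM unstimulated, and this was not held, with 8.11 against 4.66 FPKM over unshared exons. Gins2 overlaps the end of a gene on the other strand and was assembled in 3 libraries alone, at 5.08 and 41.4 FPKM at 8 h and 30 h of anti-IgM and 38.9 FPKM with both at 30 h. Elsewhere its RNA may have been present and not assembled. Cdc7 and Dbf4, the kinase and its activating subunit, were at 14.8 and 14.1 FPKM with anti-IgM at 30 h and 15.2 and 13.8 FPKM with both, against 8.65 and 7.32 FPKM unstimulated, and neither was counted in any comparison.

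All 4 genes of the primase and polymerase alpha complex, which starts every new strand with a short primer, were counted higher at 30 h with anti-IgM and with both, and 0 of 4 with BAFF. Prim1, the catalytic primase subunit, was at 37.9, 22.2 and 32.5 FPKM with anti-IgM, BAFF and both at 30 h, against 10.7 FPKM unstimulated. Its partner Prim2 was at 20.9, 12.8 and 20.5 FPKM, against 7.68 FPKM. With BAFF the difference of Prim1, 0.99, was just under the threshold. Pola1, the polymerase subunit, was at 34.9 FPKM with anti-IgM, 8.86 FPKM with BAFF and 16.4 FPKM with both at 30 h, against 4.5 FPKM. The anti-IgM value is the sum of a piece at each end of the gene, and over unshared exons Pola1 was at 17.1 FPKM with anti-IgM and 16.3 FPKM with both. Pola2, the regulatory subunit, was at 33.6, 23.8 and 33.0 FPKM, against 15.7 FPKM unstimulated.

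The genes of the 2 polymerases that extend the strands differed in their timing. Pold2, an accessory subunit of polymerase delta, was one of the few members already higher at 8 h: it was at 47.0 and 38.2 FPKM at 8 h and 30 h of anti-IgM, 22.2 and 28.3 FPKM with BAFF, and 42.8 and 39.9 FPKM with both, against 17.0 FPKM unstimulated. All 4 differences with anti-IgM or both were held. Pold1, the catalytic subunit, was lower at 8 h, at 21.5 FPKM with anti-IgM and 21.3 FPKM with both, than at 36.8 FPKM (interval 24.1 to 49.5) with BAFF or 37.4 FPKM unstimulated, without reaching the threshold. At 30 h it was at 54.7, 47.6 and 56.3 FPKM with anti-IgM, BAFF and both, and it was counted higher only against 8 h of the same stimulus, with anti-IgM and with both. Pold3 was counted higher at 30 h with anti-IgM (35.2 FPKM) and both (31.6 FPKM), against 14.0 FPKM unstimulated, with unshared differences of 0.96 and 0.97, just short of held. Pole, the catalytic subunit of polymerase epsilon, was at 17.6 FPKM with anti-IgM and 15.7 FPKM with both at 30 h, against 9.76 FPKM unstimulated. In the unstimulated library 7 pieces were assembled, and over unshared exons Pole was at 17.2 FPKM with anti-IgM and 15.5 FPKM with both, against 2.44 FPKM. Its lower counts at 8 h with all 3 stimuli were not held. Pole2, its second subunit, was at 14.6, 8.23 and 15.1 FPKM, against 4.02 FPKM, and was counted and held with anti-IgM and both.

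The clamp itself had the highest level of any member. Pcna was at 171 and 312 FPKM (interval 307 to 318) at 8 h and 30 h of anti-IgM, 83.1 and 178 FPKM with BAFF, and 117 and 240 FPKM with both, against 78.2 FPKM (interval 75.2 to 81.3) unstimulated. It was counted higher at 8 h with anti-IgM (1.12), and at 30 h with all 3 stimuli (1.98, 1.18 and 1.6), each held. Of the 5 clamp loader genes, Rfc3, Rfc4 and Rfc5 were higher at 30 h with anti-IgM and both, and Rfc1 and Rfc2 were not. Rfc5 was at 34.4, 19.3 and 34.6 FPKM with anti-IgM, BAFF and both, against 9.78 FPKM, and Rfc3 was at 38.5, 21.4 and 36.1 FPKM, against 15.8 FPKM. Rfc4, which overlaps the end of Eif4a2, was assembled in 3 libraries alone, at 46.5 FPKM with anti-IgM at 30 h and 46.6 FPKM with both at 30 h, against 10.9 FPKM unstimulated. In the other libraries Rfc4 RNA may have been present and not assembled. Rfc1, the large subunit, was at 33.2, 29.8 and 30.5 FPKM, against 26.3 FPKM. Rfc2, which shares exon bases with another gene, had a pattern of its own in the summed values. It was at 16.5 and 67.1 FPKM at 8 h and 30 h of anti-IgM, 53.3 and 30.8 FPKM with BAFF, and 22.4 and 63.0 FPKM with both, against 60.7 FPKM unstimulated. Over unshared exons it was at 15.7 and 64.1 FPKM with anti-IgM, 32.6 and 29.4 FPKM with BAFF, and 21.4 and 60.3 FPKM with both, against 37.4 FPKM. Its lower level at 8 h of anti-IgM (-1.82) was held and was the only lower difference from the unstimulated library that was.

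At 30 h the single-strand binding genes had smaller differences from the unstimulated library than the genes that finish Okazaki fragments. Rpa1, Rpa2 and Rpa3, which encode the 3 subunits of the protein that coats unwound DNA, were at 76.1, 52.5 and 41.9 FPKM at 30 h of anti-IgM and at 64.6, 50.5 and 58.3 FPKM at 30 h of both, against 40.4, 18.9 and 26.3 FPKM unstimulated. Rpa2 was counted higher with anti-IgM and both, Rpa3 with both alone, and Rpa1 with none of the 3. Lig1, the ligase that seals Okazaki fragments, was at 9.42 and 62.8 FPKM at 8 h and 30 h of anti-IgM, 10.2 and 28.7 FPKM with BAFF, and 8.94 and 64.0 FPKM with both, against 8.95 FPKM unstimulated. The 3 libraries at 8 h and the unstimulated one had overlapping intervals, and the 3 at 30 h were all above them. Fen1, the nuclease that trims the fragments, was at 26.0 and 47.5 FPKM with anti-IgM, 19.4 and 30.2 FPKM with BAFF, and 28.9 and 48.8 FPKM with both, against 13.3 FPKM. It was counted higher at 8 h with both (1.07), and at 30 h with anti-IgM and both. With BAFF at 30 h its difference of 1.13 was not counted because the interval of that library ran from 0 to 63.0 FPKM.

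Among the fork protection genes, Timeless showed the largest summed difference of any member between anti-IgM and BAFF at 30 h, 2.47. Timeless, which with Tipin keeps helicase and polymerase together, was at 65.2 FPKM with anti-IgM, 10.9 FPKM with BAFF and 27.3 FPKM with both at 30 h, against 12.2 FPKM unstimulated. With anti-IgM it was assembled as a short 5′ piece and 2 longer isoforms, and over unshared exons it was at 30.3, 10.6 and 26.0 FPKM, against 5.32 FPKM unstimulated. Tipin was at 48.2, 30.7 and 58.2 FPKM, against 18.6 FPKM, and Wdhd1, which links polymerase alpha to the helicase, at 27.6, 12.9 and 25.1 FPKM, against 9.46 FPKM. Both were counted and held with anti-IgM and with both. Clspn, which encodes the checkpoint mediator claspin, was at 0.823 and 13.7 FPKM at 8 h and 30 h of anti-IgM, 6.11 FPKM with BAFF at 30 h and 10.8 FPKM with both at 30 h, against 6.21 FPKM unstimulated, and was not assembled at 8 h of BAFF or both. Over unshared exons its unstimulated level was 0.955 FPKM.

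Histone deposition genes, whose products place new histones behind the fork, were higher at 30 h with every stimulus, and all 9 of those differences were held. Chaf1a, the large subunit of CAF-1, was at 25.8, 11.5 and 22.9 FPKM with anti-IgM, BAFF and both at 30 h, against 2.76 FPKM unstimulated. Chaf1b was at 21, 9.51 and 21.1 FPKM, against 4.01 FPKM. The chaperone gene Asf1b was at 38.0, 17.4 and 32.8 FPKM, against 5.86 FPKM. The 2 CAF-1 subunits stood close to one another at 30 h, with a ratio of 1.23 with anti-IgM, 1.21 with BAFF and 1.09 with both. Chaf1a at 8 h of BAFF (6.69 FPKM) was counted higher and was not held.

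**Figure D4:**
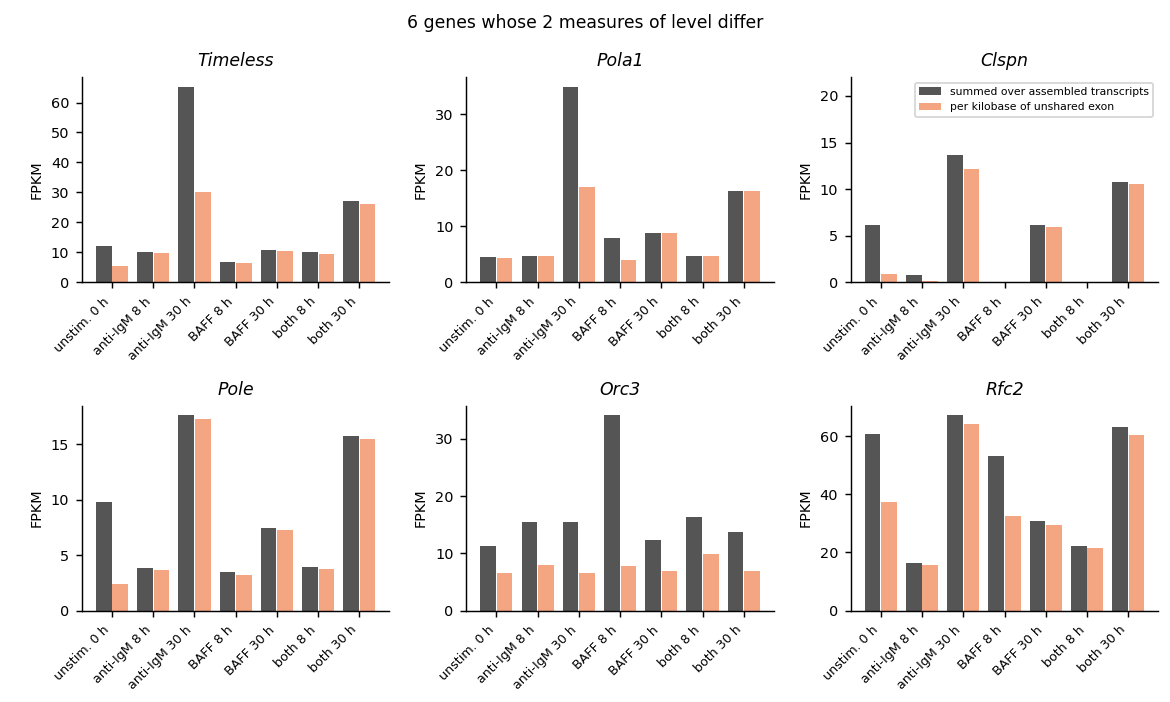
For 6 genes the FPKM summed over assembled transcripts (dark) is drawn beside the value per kilobase of unshared exon (light) in the 7 libraries. Timeless and Pola1 differ between the measures at 30 h of anti-IgM, and Clspn and Pole in the unstimulated library. Orc3 differs at 8 h of BAFF, and Rfc2 there and in the unstimulated library. For 19 of the 50 genes the sum exceeded 1.5 times the unshared value in at least 1 library.

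From 8 h to 30 h of the same stimulus, a comparison that does not use the unstimulated library, the machinery was again higher. With anti-IgM 32 of 49 members were higher at 30 h and 0 lower, against 8.01% and 5.38% of all genes, and 31 of the 32 were held. With both agents 29 of 46 were higher and 0 lower, against 5.58% and 6.97%, all 29 held. With BAFF 11 of 46 were higher and 1, Orc3, lower, against 3.64% and 4.2%, with 10 held as higher and the lower one not. Over unshared exons the BAFF count was 18 higher and 0 lower, with a median of 0.81 for the members and -0.04 for all genes. The share of all genes by that measure was not computed. The medians of the summed values were 1.64 with anti-IgM, 1.35 with both and 0.65 with BAFF, and those over all genes were -0.02, -0.12 and -0.05. Lig1, Gmnn and Asf1b differed by 2.61, 2.54 and 2.60 under anti-IgM and by 1.40, 1.63 and 1.46 under BAFF.

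Anti-IgM was also set directly against BAFF, and levels of the machinery were higher with anti-IgM at 30 h. At 30 h all 48 members compared were above 0, with a median of 0.74 where that of all genes was 0.00. Of these, 14 were counted higher and 0 lower, against 3.99% and 4.73% of all genes. The 14 were Mcm5, Mcm6, Cdc6, Orc1, Pola1, Pole, Rfc2, Lig1, Chaf1a, Chaf1b, Wdhd1, Timeless, Clspn and Asf1b, of which 11 were held and Pola1, Wdhd1 and Clspn fell short at 0.88, 0.98 and 0.92. Over unshared exons 46 of 48 were above 0. At 8 h 6 of 46 members were counted different between anti-IgM and BAFF, against 13.3% of all genes either way, with a median of 0.02. Pcna and Pold2 were higher with anti-IgM, against 4.88% of all genes higher, and Cdc45, Orc3, Pold3 and Rfc2 lower, against 8.43% of all genes lower. Pcna, Pold2 and Rfc2 held.

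The BAFF level at 30 h lay between the unstimulated and the anti-IgM level for 39 of the 50 genes. The highest of the 7 values was that of BAFF at 30 h for 0 members, of anti-IgM at 30 h for 29 and of both at 30 h for 16. The other 5, Cdt1, Orc2, Orc3, Orc4 and Pold2, had their highest value at 8 h or unstimulated. These orders of the libraries were not counted over all genes. The 16 genes counted higher at 30 h with all 3 stimuli were Mcm2 to Mcm7, Mcm10, Pcna, Cdc6, Cdc45, Gins1, Lig1, Chaf1a, Chaf1b, Gmnn and Asf1b. Another 16 were counted with anti-IgM and both but not with BAFF, among them all 4 of primase and polymerase alpha. With BAFF these 4 were also above unstimulated, by 0.57 to 0.99 with a median of 0.76, and fell short of the threshold.

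**Figure D5:**
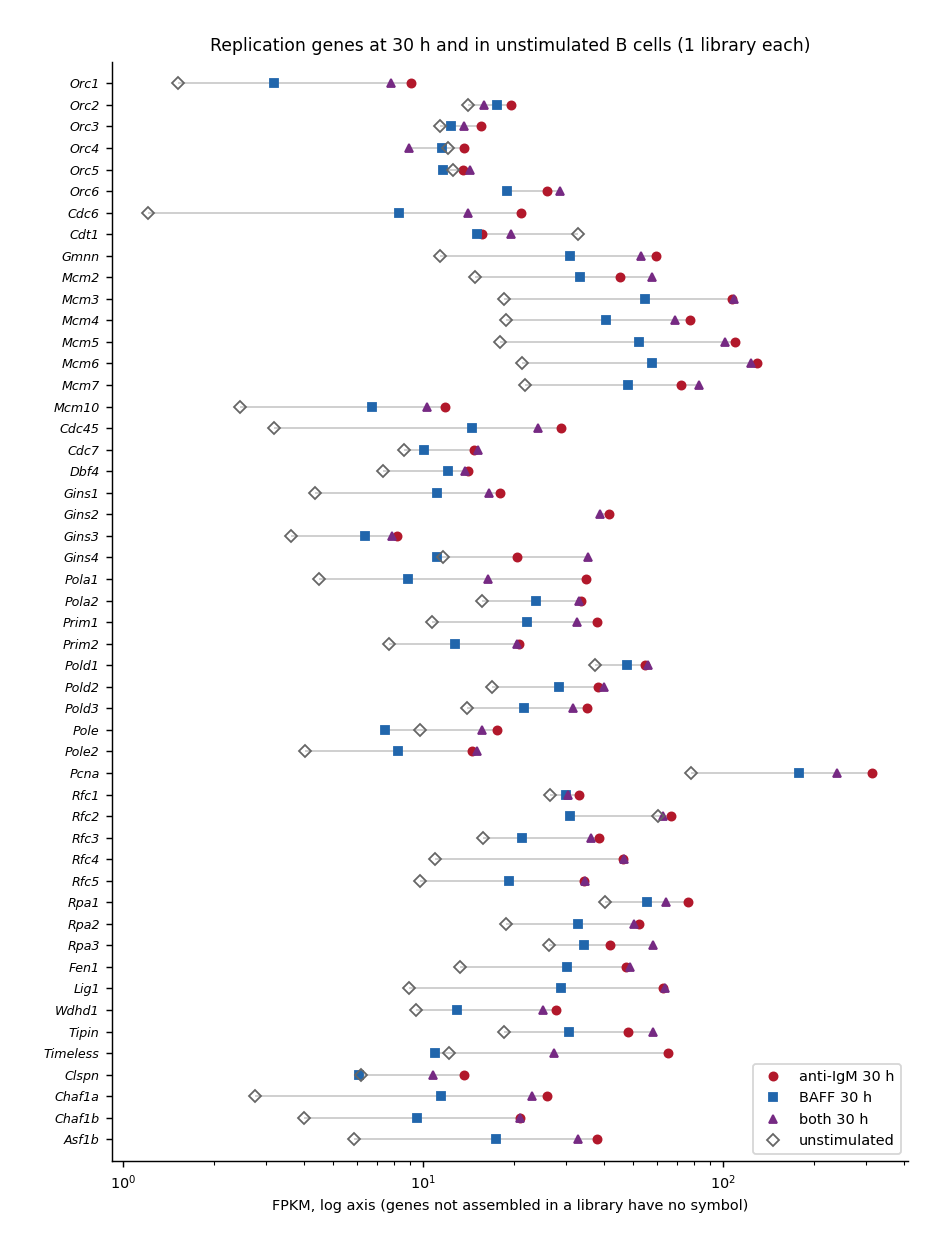
FPKM on a log axis is shown for each of the 50 genes in the anti-IgM, BAFF and both libraries at 30 h and in the unstimulated library, 1 library each. The BAFF squares lie between the open unstimulated diamonds and the anti-IgM circles for 39 genes, while Cdt1 has its unstimulated value furthest to the right.

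Adding BAFF to anti-IgM went with little difference in this machinery. At 8 h 0 of 46 members differed between both and anti-IgM, against 6.24% of all genes, and at 30 h 2 of 50, Pola1 and Timeless, were lower with both, against 5.39% of all genes either way and 3.27% lower. Neither of these was held, and both genes were summed over pieces in the anti-IgM library. The median at 30 h was -0.09 for the members and -0.04 for all genes, and 18 of 50 members were higher with both than with anti-IgM. No threshold was met for Pcna (-0.38) or Rpa3 (0.47), at 240 and 58.3 FPKM with both and 312 and 41.9 FPKM with anti-IgM. Adding anti-IgM to BAFF at 8 h gave 4 of 46 counted differences, against 12.4% of all genes either way, and all 4 were lower with both, against 6.81% of all genes lower. They were Cdc45, Orc3, Rfc2 and Chaf1a, and none was held. At 30 h it gave 7 of 48, against 8.13% of all genes either way, and all 7 were higher with both, against 3.03% of all genes higher: Mcm6, Orc1, Rfc2, Lig1, Chaf1b, Timeless and Gins4, of which 6 were held and Gins4 was not. The median of the members was 0.72 and that of all genes -0.04, and 46 of 48 members were above 0.

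Genes outside the 50 that serve replication were read from lists chosen with earlier results of these data known. Over all genes the shares counted higher than unstimulated at 30 h were 8.44% with anti-IgM, 5.22% with BAFF and 8.36% with both. Of 9 genes of deoxynucleotide supply, 8 were compared with the unstimulated library at 30 h, and 6 were counted higher with anti-IgM, 5 with BAFF and 7 with both, with medians of 1.95, 1.38 and 2.10. Rrm2, a subunit of ribonucleotide reductase, was at 57.1, 30.7 and 52.1 FPKM with anti-IgM, BAFF and both at 30 h, against 7.29 FPKM. Of 28 other replication factors 24 were compared at 30 h, and 8 were higher with anti-IgM, 6 with BAFF and 8 with both. With both agents 2 were lower, against 7.87% of all genes. Top2a, which untangles copied DNA, was at 66.3, 40.1 and 61.7 FPKM, against 9.72 FPKM unstimulated. Of 14 S phase control genes 11 were compared, and 3 were higher with anti-IgM, 1 with BAFF and 3 with both. Ccna2, which encodes cyclin A2, was at 32.9, 22.5 and 28.4 FPKM at 30 h, against 6.27 FPKM. E2f1 was assembled only at 8 h of BAFF and 8 h of both, at 3.94 and 5.39 FPKM. In the other libraries the lack of an assembled transcript need not mean that its RNA was absent. E2f2 was at 16.5, 22.3 and 13.6 FPKM with anti-IgM, BAFF and both at 30 h, against 24.3 FPKM unstimulated.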

How the data were processed

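Per the submitters' processing notes, reads were aligned with TopHat2 (version 2.0.5) and Bowtie2 (version 2.0.0.7) to mm10 and transcripts assembled with Cufflinks (version 2.0.2). The authors deposited 1 transcript file per library, with FPKM, a counting interval and other attributes in a text column, and 1 merged set without levels. Per the labels' protocols, RNA was reverse transcribed from poly-dT primers.

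Transcripts of at least 300 bases were named by the gene with the largest same-strand exon overlap in the merged set, and FPKM was summed per gene, with half-widths of the intervals added in quadrature. Shorter transcripts, left out of the sums, held 67.7% of all FPKM in the unstimulated library and 66.6% to 74.4% in the stimulated ones. Levels were compared as log2(FPKM + 1), a scale that understates differences of low genes, with Python 3.11.15, numpy 2.4.6 and pandas 2.3.3, and drawn with matplotlib 3.10.9. The 15 comparisons are single libraries, so they describe these libraries, and the intervals do not cover the spread between cultures. The members and all gene lists were chosen with earlier results of these data known. All 50 members are named. A planned search of member proteins for motifs was not run.

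Alternatives changed the pseudocount, the low-value filter, the fold, the intervals, the scaling and the way transcripts were summed. The measure over unshared exons (same-strand or unstranded pieces over exon bases of 1 gene alone) was chosen after seeing the data.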

Additional observations from a re-analysis of the deposited data

Results flagged for a closer look

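Clspn was the only member counted in opposite directions at the 2 times of 1 stimulus. With anti-IgM its log2 difference from the unstimulated library was -1.98 at 8 h and 1.03 at 30 h, and the difference between the 2 was not tested. Its levels were 0.823 and 13.7 FPKM with anti-IgM at 8 h and 30 h, against 6.21 FPKM unstimulated. Over unshared exons they were 0.127 and 12.1 FPKM, against 0.955 FPKM, so the 8 h difference was not held and the 30 h difference was. The unstimulated value was summed over 5 assembled pieces.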

How the results depend on the processing

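Each count was recomputed under 10 other settings. The share of all genes counted was not computed under them. Without intervals, with pseudocount 0.1 or with no filter on low values, all 15 counts stayed within 1.5 times their value. A 1.5-fold threshold in place of 2-fold gave more genes: against the unstimulated library 10 higher with anti-IgM at 8 h, 5 with BAFF at 8 h, 6 with both at 8 h and 28 with BAFF at 30 h, 26 for BAFF at 30 h over 8 h, and 30 for anti-IgM over BAFF at 30 h. Counted in either direction it gave 12 different between anti-IgM and BAFF at 8 h (7 lower with anti-IgM), 3 between both and anti-IgM at 8 h, and 8 (7 lower with both) and 28 (0 lower) between both and BAFF at 8 h and 30 h. Scaling by the median difference of genes assembled in both libraries, with at least 5 FPKM in 1 of them, gave 1 higher with both at 8 h. Summing transcripts of any length gave 4 higher with anti-IgM at 8 h and 1 different between both and anti-IgM at 8 h, and setting genes not assembled to 0 gave 4 and 2. The most abundant transcript alone gave 0 higher with BAFF at 8 h, 19 for BAFF at 30 h over 8 h and 0 different between both and anti-IgM at 30 h. Reads over exons of either strand gave 5 higher with anti-IgM, 1 with BAFF and 4 with both at 8 h, 26 with BAFF at 30 h, 18 for BAFF at 30 h over 8 h, 1 and 0 different between both and anti-IgM at 8 h and 30 h, and 1 between both and BAFF at 8 h. Unshared exons gave 0 higher with BAFF at 8 h, 18 for BAFF at 30 h over 8 h, 3 different between anti-IgM and BAFF at 8 h (1 lower with anti-IgM), 0 between both and anti-IgM at 30 h and 0 between both and BAFF at 8 h. The counts of 33 with anti-IgM and 34 with both at 30 h, and of 32 and 29 over 8 h, moved by less than 1.5 times in every setting. Single libraries limit all of this: the intervals describe each library alone, and the spread between cultures is not known.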
